A study of Mus musculus with 5 samples.

Results

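The 9 membrane adenylyl cyclase genes of the mouse, Adcy1 to Adcy9, were examined in ribosome-bound RNA of dopamine D2 receptor (Drd2) neurons of the central amygdala (CeA). A gene was taken as a member where the name column of the deposited table held its symbol exactly. By this rule 8 of the 9 genes had a row among the 15093 genes of the table, and Adcy4 was not analysed here. Every listed gene exceeds 1 in 1 or more of the libraries.

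Translating ribosome affinity purification (TRAP) pulls down EGFP-tagged ribosomes, here from adult mice in which Drd2-Cre switches on an EGFP/Rpl10a transgene at Rosa26, so that all libraries of both groups carry both alleles. The tag follows Drd2-Cre and therefore marks any cell in the punch that uses this driver. There were 3 libraries from fear conditioned mice (FC, replicates 2, 3 and 4) and 2 from controls (HC, replicates 6 and 7), each a pool of bilateral CeA punches from 3 animals. The labels describe HC as Home Cage and place the collection 2 h after extinction, whereas the paper's results describe controls that heard the tone without shock and a collection 2 h after conditioning. Values are reads scaled to 1000000 of a library size that the authors adjusted, called CPM here, and 19605318 to 27937520 reads on genes were recovered per library. The HC libraries stood further from each other than the FC libraries did, with 976 and 2681 genes at 0 reads in HC and 159 to 349 in FC. Of the 6 Drd2 neuron markers, all had reads in every library, with summed values of 21475 to 22827 CPM in FC and 7930 to 12930 CPM in HC. Of the 5 CeA neuron markers, all had reads in every FC library and 4 in every HC library, the exception being Tac2 at 0 in HC replicate 7. Unlike the Drd2 neuron markers, their summed values overlapped, with 286, 158 and 153 CPM in FC and 277 and 469 CPM in HC.

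Adenylyl cyclases convert ATP to cyclic AMP (cAMP), which activates protein kinase A, exchange factors for Rap and cyclic nucleotide-gated channels. Stimulatory G proteins raise the activity of the membrane isoforms, and the isoforms differ in what else they answer to. Adcy1, Adcy3 and Adcy8 are stimulated by calcium and calmodulin, Adcy2, Adcy4 and Adcy7 by G beta-gamma subunits, Adcy5 and Adcy6 are inhibited by calcium and by inhibitory G proteins, and Adcy9 responds poorly to forskolin. Adcy5 is the main isoform of striatal projection neurons. In those that express Drd2, D2 receptors restrain it and the adenosine receptors encoded by Adora2a drive it through the G protein subunit encoded by Gnal.

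Promoter sequence is shown for the isoforms that made up most of the family, and such windows were present in the RefSeq table (GRCm38.p6) for 7 of the 9 genes. The Adcy1 line holds the 250 bases before the annotated start, at chr11:7063183-7063432 on the plus strand, and the Adcy5 line holds 30 bases from position -60 to -31 before a start, at chr16:35154804-35154833 on the plus strand. Capitals mark the GC box (GGGCGG, or CCGCCC for the other strand).

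Adcy1: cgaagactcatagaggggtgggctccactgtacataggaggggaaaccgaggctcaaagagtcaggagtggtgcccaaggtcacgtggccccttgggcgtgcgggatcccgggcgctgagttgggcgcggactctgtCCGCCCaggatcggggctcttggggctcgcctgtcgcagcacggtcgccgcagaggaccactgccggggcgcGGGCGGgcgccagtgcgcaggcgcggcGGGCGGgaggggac

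Adcy5: gagcggcgcgggGGGCGGggaggcggcggg

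The Adcy1 window held 3 GC boxes and the full 250-base Adcy5 window held 4, a motif present in 32.7% of the 32851 windows of that length in the table. Neither window held the full cAMP response element TGACGTCA (1.55% of windows), its shorter forms TGACG or CGTCA (17.8%), of which the full element contains both, or the TATA box TATAAA or TTTATA (12.4%), all searched on both strands. G and C made up 71.2% of the Adcy1 window and 78.0% of the Adcy5 window, with a median of 52.4% over all windows. These matches describe the letters of the windows and say nothing of binding.

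Levels were compared between isoforms per length, as CPM per kb of the deposited gene length, since a longer transcript gives more reads. Adcy5 (ENSMUSG00000022840) was the leading isoform in each of the 5 libraries. Its level was 99.4, 137 and 154 CPM per kb in FC replicates 2, 3 and 4 and 70.5 and 122 CPM per kb in HC replicates 6 and 7. On this scale it stood between the percentiles 93.6 and 97.2 of the 15084 genes with a length above 0. The other isoforms were far lower, and the next of them, Adcy1, averaged 11.8 ± 7.43 CPM per kb (SD, n = 5 libraries) against 116 ± 32.5 for Adcy5. Adcy5 exceeded Adcy1 in 5 of 5 libraries, by a mean log2 ratio of 3.46 ± 1.11 (exact sign-flip permutation test, two-sided, p = 0.0625, the smallest that 5 libraries allow).

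**Figure D1:**
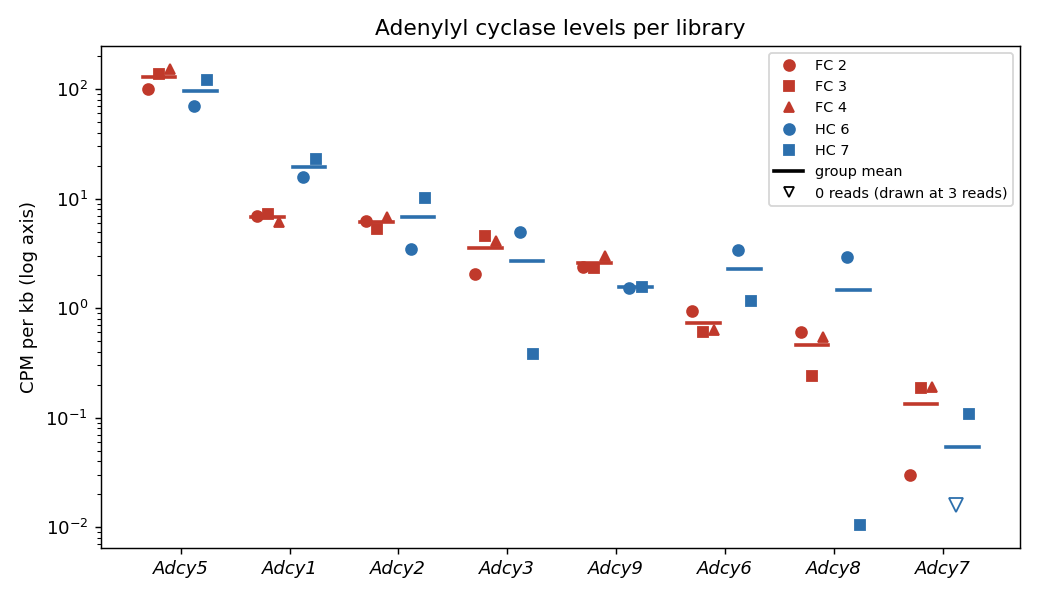
Level of each adenylyl cyclase in CPM per kb on a log axis, with 1 symbol per library (red, FC; blue, HC), bars at the group means and an open triangle at 3 reads for the library with 0 reads. Adcy5 lies above every other isoform in all 5 libraries, and the HC symbols of Adcy3 and Adcy8 lie further apart than those of Adcy2 and Adcy6, which are each 2.90-fold apart.

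Below Adcy5 the mean levels per kb ran in the order Adcy1, Adcy2, Adcy3, Adcy9, Adcy6, Adcy8 and Adcy7. Adcy2 (ENSMUSG00000021536) averaged 6.37 ± 2.42 CPM per kb, Adcy3 (ENSMUSG00000020654) 3.22 ± 1.94, Adcy9 (ENSMUSG00000005580) 2.17 ± 0.612 and Adcy6 (ENSMUSG00000022994) 1.35 ± 1.17 (SD, n = 5 libraries). Adcy8 (ENSMUSG00000022376) averaged 0.870 ± 1.19 CPM per kb and Adcy7 (ENSMUSG00000031659) 0.103 ± 0.0868. Most neighbours in this order were not separated beyond the spread between libraries. Adcy1 was above Adcy2 in 4 of 5 libraries, with a mean log2 ratio of 0.77 ± 0.93, and Adcy3 above Adcy9 in 3 of 5, with 0.17 ± 1.41. Besides Adcy5 over Adcy1, Adcy6 over Adcy8 was the only neighbouring pair in the same order in all 5 libraries. Over the 6 pairs with reads in every library, the sign-flip permutation p ranged from 0.0625 to 0.8125, and from 0.1875 to 0.8125 after Benjamini-Hochberg adjustment.

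As a share of the family sum per kb, Adcy5 made up 83.8%, 86.9% and 87.8% in FC replicates 2, 3 and 4 and 68.8% and 77.0% in HC replicates 6 and 7. The share was higher in each FC library than in either HC library. The group means were 86.2% ± 2.11 (SD, n = 3) and 72.9% ± 5.76 (SD, n = 2), a difference of 13.3 percentage points (two-sided exact permutation p = 0.1, which is the lowest value possible for 3 libraries against 2). In reads, without division by length, Adcy5 took 78.7% of the family's reads in FC replicate 2 (95% Wilson interval 78.0 to 79.3), 82.2% in FC replicate 3 (81.7 to 82.7) and 84.3% in FC replicate 4 (83.8 to 84.8). It took 57.8% in HC replicate 6 (57.1 to 58.5) and 66.0% in HC replicate 7 (65.4 to 66.7). These intervals cover counting error alone, over 14975 to 22460 family reads per library, and are narrow beside the gaps between libraries.

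The share of Adcy1 went the other way. The shares of a library are parts of a whole, so the Adcy1 and Adcy5 differences are not separate results. The sums by regulation and the ratio of Adcy5 to Adcy1 given below use the same values. The Adcy1 share was 5.81%, 4.65% and 3.52% of the family sum per kb in FC replicates 2, 3 and 4 and 15.2% and 14.6% in HC replicates 6 and 7. Each FC share was below both HC shares, and the group means were 4.66% ± 1.15 (SD, n = 3) and 14.9% ± 0.431 (SD, n = 2), a difference of -10.3 percentage points (exact permutation test, two-sided, p = 0.1) that was -18.4 without division by length. The shares of the remaining isoforms overlapped between the groups. Adcy2 took 3.35% to 5.32% in FC and 3.39% and 6.35% in HC, and Adcy9 1.49% to 2.01% in FC and 1.51% and 0.993% in HC. Adcy3 took 1.74% to 2.90% in FC and 4.85% and 0.243% in HC, Adcy6 0.360% to 0.794% in FC and 3.31% and 0.738% in HC, and Adcy8 0.153% to 0.510% in FC and 2.88% and 0.00663% in HC. Adcy7 took at most 0.118% in any library. Over these 6 isoforms the exact permutation p ranged from 0.2 to 0.9.

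**Figure D2:**
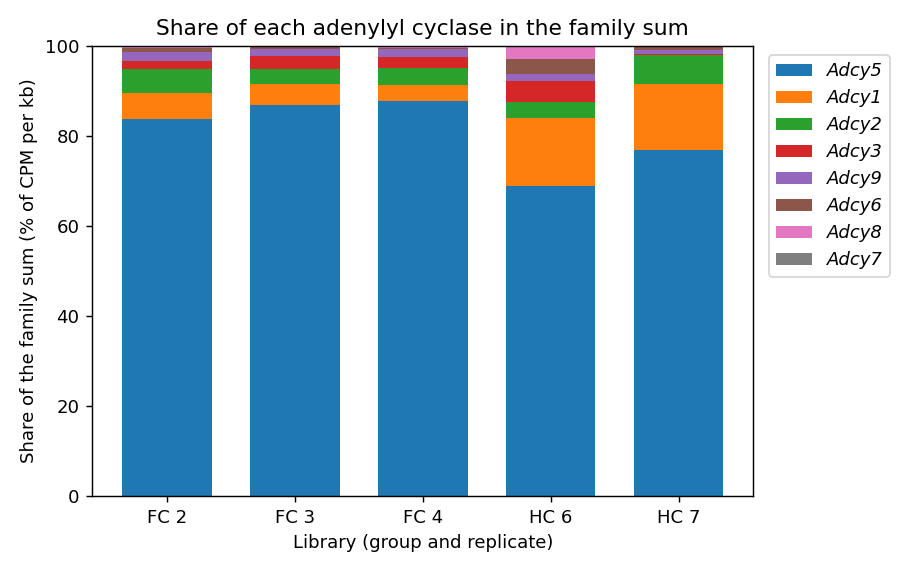
Stacked bars of the share of each isoform in the family sum of CPM per kb (vertical axis, percent) in each of the 5 libraries (horizontal axis). The Adcy5 share is at least 83.8% in the FC libraries and at most 77.0% in the HC libraries, and the Adcy1 share is near 15% in both HC libraries.

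Grouped by regulation, the calcium-stimulated isoforms (Adcy1, Adcy3 and Adcy8) summed to 8.05%, 7.71% and 6.17% of the family in the FC libraries and to 23.0% and 14.9% in HC replicates 6 and 7. The isoforms inhibited by calcium and inhibitory G proteins (Adcy5 and Adcy6) summed to 84.6%, 87.3% and 88.2% in FC and to 72.1% and 77.7% in HC. The G beta-gamma-stimulated isoforms with a row (Adcy2 and Adcy7) held 3.47% to 5.35% in FC and 3.39% and 6.41% in HC. The groups did not overlap in the first and second of these sums and overlapped in the last. Of the 3 calcium-stimulated isoforms, Adcy1 was the only one whose own share did not overlap, and within the second class the mean share of Adcy6 was 0.514% in FC and 2.02% in HC, the opposite order to Adcy5. The family sum itself overlapped, with 119, 157 and 175 CPM per kb in FC and 102 and 159 in HC. Without Adcy5 the remaining isoforms summed to 19.2, 20.5 and 21.3 CPM per kb in FC and to 31.9 and 36.5 in HC.

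The ratio of Adcy5 to Adcy1 is taken within a library and does not depend on how libraries are scaled to each other. Per kb, Adcy5 exceeded Adcy1 14.4-fold, 18.7-fold and 24.96-fold in FC replicates 2, 3 and 4 and 4.52-fold and 5.26-fold in HC replicates 6 and 7. The FC ratios were all above the HC ratios. On the log2 scale the means were 4.24 ± 0.40 (SD, n = 3) and 2.29 ± 0.16 (SD, n = 2), a difference of 1.95 (exact permutation test, two-sided, p = 0.1). This ratio was chosen after the shares were seen.

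**Figure D3:**
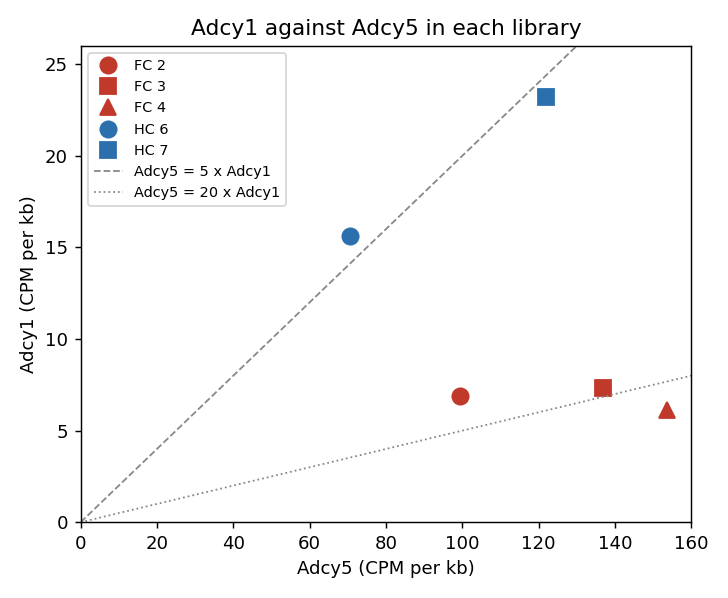
Adcy1 (vertical axis) against Adcy5 (horizontal axis), both in CPM per kb, with 1 symbol per library and lines where Adcy5 is 5 and 20 times Adcy1. The HC libraries lie by the line of 5 and the FC libraries, at ratios of 14.4 to 24.96, on either side of the line of 20.

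FC and HC were then compared isoform by isoform with limma on log2(CPM + 1) for the 13560 genes with a mean of at least 1 CPM, two-sided, with Benjamini-Hochberg adjustment over all of them. A gene was called at an adjusted p under 0.05 with an absolute log2 fold change over 0.5. By this rule 0 of the 7 isoforms tested were called, as was 0.0% of all genes. At an unadjusted p under 0.05 there was 1 isoform of 7, Adcy1, against 16.8% of all genes. The groups did not overlap for 3 of the 7 (Adcy1 and Adcy6 lower in FC, Adcy9 higher), against 36.4% of all genes, so the count of isoforms was near that of genes in general. Adcy7, with a mean of 0.647 CPM, was not tested. The median log2 fold change was 0.03 over the 7 isoforms and 0.08 over all genes tested.

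Adcy1 (ENSMUSG00000020431), the calcium-stimulated isoform known for its part in synaptic plasticity, had 86.1, 91.5 and 76.9 CPM in FC replicates 2, 3 and 4 and 195 and 290.0 CPM in HC replicates 6 and 7. The FC libraries lay close together and all were below both HC libraries. The means were 84.8 ± 7.35 CPM (SD, n = 3) in FC and 243 ± 67.1 CPM (SD, n = 2) in HC, 2.86-fold higher in HC. The log2 fold change was -1.48 (standard error, SE, 0.26, 95% interval -2.10 to -0.86), with an unadjusted p of 0.00101 and an adjusted p of 0.197 (limma with Benjamini-Hochberg adjustment). It was negative in each setting tried, from -1.77 without HC replicate 6 to -1.20 without HC replicate 7. On the recovered reads the adjusted p for Adcy1 was 0.156 with edgeR's quasi-likelihood test and 0.000219 with DESeq2, whose log2 fold change was -1.55. Adcy1 was the only one of 8 isoforms that DESeq2 called, where it called 3.79% of all genes as lower in FC and 7.47% in either direction. With each FC library left out in turn, 0 isoforms were called, against at most 0.00735% of all genes. Without HC replicate 6, limma called 4 of the 7 isoforms and 60.5% of all genes, and without HC replicate 7 it called 3 of the 7 and 27.5%, since the spread is then taken from the FC libraries alone. Adcy1 was among the isoforms called in both, with adjusted p values of 0.000552 and 0.00908.

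Adcy5 had 558, 769 and 863 CPM in FC replicates 2, 3 and 4 and 396 and 686 CPM in HC replicates 6 and 7. HC replicate 7 lay above FC replicate 2, so the groups overlapped. The log2 fold change was 0.46 (SE 0.33, 95% interval -0.34 to 1.26, adjusted p = 0.501, limma with Benjamini-Hochberg adjustment), and it ranged from 0.07 without HC replicate 6 to 0.86 without HC replicate 7. The higher share of Adcy5 in FC thus went with a level that was not separated between the groups and with a lower level of the other isoforms combined. Those averaged 20.4 CPM per kb in FC and 34.2 in HC, of which Adcy1 alone made up 6.79 and 19.4. Adcy6 was also lower in FC, Adcy9 was higher, and Adcy2, Adcy3, Adcy7 and Adcy8 overlapped between the groups.

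Adcy6, the close relative of Adcy5, had 5.64, 3.66 and 3.77 CPM in FC and 20.3 and 7.01 CPM in HC. Both HC libraries were above the FC libraries, HC replicate 7 by a small margin over FC replicate 2. The log2 fold change was -1.31 (SE 0.64, 95% interval -2.86 to 0.25, adjusted p = 0.360). Without HC replicate 6 it was -0.60, and without HC replicate 7 it was -2.01 with an adjusted p of 0.00759 (limma with Benjamini-Hochberg adjustment). The HC libraries were 2.90-fold apart.

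Adcy9 had 16.1, 15.8 and 20.1 CPM in FC and 10.4 and 10.6 CPM in HC. Each FC library was above both HC libraries, and Adcy9 was the isoform on which the HC libraries were closest, 1.02-fold apart. The log2 fold change was 0.67 (SE 0.43, 95% interval -0.38 to 1.72, adjusted p = 0.465), between 0.56 and 0.72 with each library left out in turn.

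For Adcy2, Adcy3 and Adcy8 the FC libraries fell between the HC libraries. Adcy2 had 26.4, 22.1 and 28.3 CPM in FC and 14.5 and 42.1 CPM in HC replicates 6 and 7, with a log2 fold change of 0.03 (95% interval -1.22 to 1.28). Adcy3, the isoform of neuronal primary cilia and olfactory neurons, had 14.1, 31.2 and 28.0 CPM in FC and 34.0 and 2.64 CPM in HC, 12.9-fold apart. Its log2 fold change was 1.10 (95% interval -1.28 to 3.48). Adcy8 had 64, 29 and 55 reads in FC, 443 reads in HC replicate 6 and 1 read in HC replicate 7, for which the counting interval is 0.0253 to 5.57 reads. Its log2 fold change of -0.34 (95% interval -3.15 to 2.46) therefore averages a library above FC with one below it. The adjusted p was 0.981 for Adcy2, 0.590 for Adcy3 and 0.897 for Adcy8 (limma with Benjamini-Hochberg adjustment). Adcy7, an isoform of blood and microglial cells, had 4, 28 and 24 reads in FC, 0 in HC replicate 6 and 13 in HC replicate 7, where the floor of 3 reads is 0.1002 CPM for HC replicate 6. The FC libraries differed among themselves, with FC replicate 2 below HC replicate 7 and the other two above both HC libraries. In the fits that kept Adcy7, the unadjusted p was 0.374 in limma with no filter, 0.513 in edgeR and 0.631 in DESeq2.

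**Figure D4:**
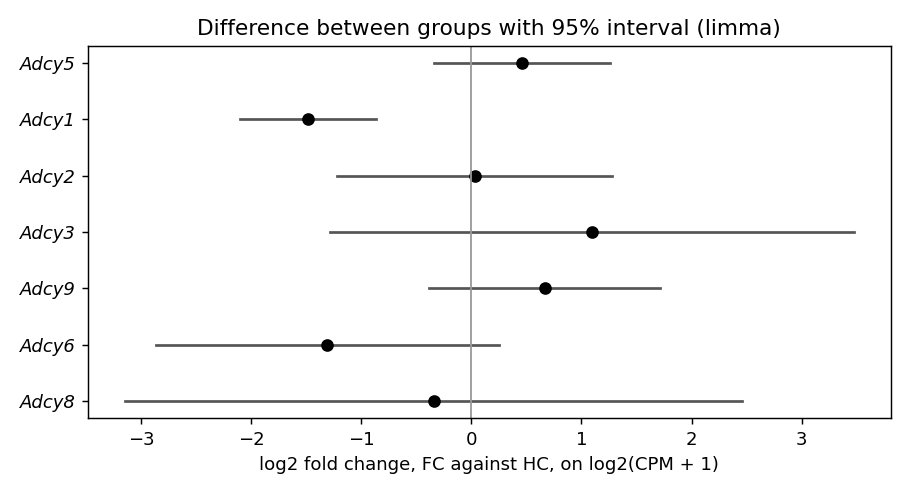
Log2 fold change of FC against HC on log2(CPM + 1) (horizontal axis) for the 7 isoforms tested, with 95% intervals from limma. The interval of Adcy1, -2.10 to -0.86, is the only one of the 7 that leaves out 0, and that of Adcy8 is the widest.

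Summed markers of several other cell types were higher in both HC libraries than in any FC library. The libraries are pull-downs from pooled punches, so these sums cannot tell apart cell number, RNA per cell and RNA carried over from untagged cells. The 8 astrocyte markers, all with reads in every library, summed to 497 to 653 CPM in FC and to 1500 and 2416 CPM in HC, and 7 of 8 had a negative log2 fold change. The 10 pallial glutamatergic markers summed to 374 to 623 CPM in FC and to 668 and 782 in HC, with 7 of 10 negative. The 8 oligodendrocyte markers, none at 0, summed to 1278 to 2712 CPM in FC and to 2780 and 5223 in HC. The 6 choroid plexus markers, led by Ttr in HC, summed to 58.0 to 110 CPM in FC and to 1009 and 1415 in HC, with Folr1 and Kcnj13 at 0 in FC replicate 2 and Otx2 at 0 in HC replicate 7. The 8 microglial markers overlapped, with 55.5 to 101 CPM in FC and 115 and 89.4 in HC. The 8 endothelial markers summed to 10.4 to 39.0 CPM in FC and to 55.9 and 217 in HC. Ly6c1 alone had 8.98 and 150 CPM in HC replicates 6 and 7. Tek went the other way, with reads in every FC library and 0 in both HC libraries. So did Cldn5, with 8.91, 1.79 and 7.25 CPM in FC and 1.14 and 0.0527 in HC. Of the 7 endothelial markers tested, 6 had a negative log2 fold change and 1 a positive one. The part of these cell types, and of the higher Drd2 neuron markers in FC, in the isoforms' values and shares was not tested.

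Set against marker genes per kb within each library, Adcy1 followed the order of the groups in one ratio and not in another. The log2 ratio of Adcy1 to Drd2 was -4.57 ± 0.51 (SD, n = 3) in FC and -1.92 ± 0.32 (SD, n = 2) in HC, with no overlap. The log2 ratio of Adcy1 to Slc17a7, the vesicular glutamate transporter of pallial neurons, was -2.19 ± 1.09 in FC and -1.93 ± 0.55 in HC, with overlap (exact permutation test, two-sided, p = 0.7). The log2 ratio of Adcy5 to Drd2 was -0.33 ± 0.20 in FC and 0.36 ± 0.17 in HC, again with no overlap, so that relative to Drd2 both isoforms were lower in FC. The 4 Drd1a neuron markers summed to 175 to 359 CPM in FC and to 109 and 100.5 CPM in HC. These ratios were chosen after the isoform values were seen.

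The genes nearest to Adcy5 in pattern over the 5 libraries were Phactr1, Rrm2b and Lingo3, by the root mean square difference of centred log2(CPM + 1) values (0.074, 0.082 and 0.083) among 9275 genes with a mean of at least 10 CPM. Phactr1 had 1028, 1370 and 1384 CPM in FC and 678 and 1121 in HC. Nearest to Adcy1 were Zfp423, Depdc5 and Ppp2r1b (0.067, 0.112 and 0.119). Zfp423 had 5.55, 6.62 and 5.16 CPM in FC and 15.7 and 21.1 in HC, the same low FC and high HC values as Adcy1 at a smaller level. The distances are a description.

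The other genes of the cAMP pathway were listed by role, 65 genes of which 63 had a row, Gpr52 and the soluble cyclase Adcy10 being without one. Pde4d had 2 rows, and 63 of the 64 rows were tested, all but the opioid receptor Oprm1. None was called (0 of 63, as 0.0% of all genes). At an unadjusted p under 0.05, 11 were higher in FC and 3 lower, against 9.49% and 7.32% of all genes. The groups did not overlap for 20 that were higher and 9 that were lower, against 20.2% and 16.1% of all genes. DESeq2 called 4 rows as higher (Adora2a, Npy5r, Gpr6 and Pde1b) and 2 as lower (Adcyap1r1 and Gnai1), against 3.68% and 3.79% of all genes. The median log2 fold change was 0.23 over the 63 rows and 0.08 over all genes.

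Among 17 receptors tested, 7 were higher and 1 lower at an unadjusted p under 0.05, with a median log2 fold change of 1.16. The lower one was Adcyap1r1, the receptor for PACAP, which stimulates adenylyl cyclase, with 42.2, 46.7 and 43.2 CPM in FC and 111 and 102 in HC. The difference was -1.26 on the log2 scale (SE 0.24, adjusted p = 0.197), and its values separated the groups as those of Adcy1 did. Gpr6, an orphan receptor of Drd2 neurons that raises cAMP, had 265, 323 and 390 CPM in FC and 90.6 and 142 in HC, and the 95% interval of its log2 fold change was 0.80 to 2.20 (adjusted p = 0.197). Adora2a and Npy5r are given because DESeq2 called them, a choice made after their values were seen. Adora2a had 453, 771 and 775 CPM in FC and 105 and 275 in HC. Npy5r, a neuropeptide Y receptor that couples to inhibitory G proteins, had 5.03, 5.62 and 10.5 CPM in FC, with 0.0334 CPM (the value of 1 read) and 0 in HC. The limma adjusted p was 0.1997 for Adora2a and 0.197 for Npy5r. The DESeq2 adjusted p was 0.0129 for Adora2a and 0.000112 for Npy5r, beside 0.00303 for Gpr6 and 0.000144 for Adcyap1r1.

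Of 8 stimulatory G protein genes and partners, 2 were higher at an unadjusted p under 0.05 and none lower, with a median of 0.62. Gng7, the gamma subunit that pairs with the Gnal product upstream of Adcy5, had 1401, 2347 and 1825 CPM in FC and 746 and 1128 in HC, a log2 fold change of 0.99 (SE 0.33). Gnb5, a beta subunit that binds RGS proteins, had 867, 964 and 901 CPM in FC and 397 and 697 in HC, a log2 fold change of 0.79 (SE 0.29). Adjusted p values were 0.241 and 0.263 (limma with Benjamini-Hochberg adjustment).

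The 6 inhibitory G protein genes had a median of -0.18, and 1 was lower at an unadjusted p under 0.05. This was Gnai1, an inhibitory alpha subunit, with 129, 133 and 109 CPM in FC and 296 and 195 in HC, a difference of -0.95 on the log2 scale (SE 0.26, adjusted p = 0.208). Gnai3, another inhibitory alpha subunit, had 19.6, 34.2 and 32.5 CPM in FC and 36.5 and 66.4 in HC, and did not pass even without adjustment. The FC libraries were below both HC libraries for each of these genes.

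None of the 6 calcium regulators and none of the 8 kinase A genes had an unadjusted p under 0.05. Camk2a, a calcium/calmodulin kinase subunit, had 101, 80.8 and 124 CPM in FC and 126 and 404 in HC, while Calm2, which encodes calmodulin, had 6941, 7678 and 6957 CPM in FC and 4659 and 4898 in HC. The Calm2 values are uncertain, since its reads may be shared with near-identical genes. Prkar2a, a regulatory subunit of protein kinase A, had 43.5, 51.8 and 45.4 CPM in FC and 75.4 and 60.1 in HC. Prkaca, a catalytic subunit, had 198, 235 and 209 CPM in FC and 179 and 145 in HC.

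Of 11 phosphodiesterase rows, enzymes that break down cyclic nucleotides, 1 was higher and 1 lower at an unadjusted p under 0.05, with a median of 0.03. Pde1b, calcium-stimulated and abundant in striatal neurons, had 1102, 1693 and 1478 CPM in FC and 634 and 819 in HC, a difference of 0.96 on the log2 scale (SE 0.28, adjusted p = 0.217). Its relative Pde1c had 25.1, 17.9 and 21.6 CPM in FC and 66.7 and 33.4 in HC, a difference of -1.11 on the log2 scale (SE 0.42, adjusted p = 0.270). Of 7 further targets of cAMP, 1 was higher at an unadjusted p under 0.05, namely Ppp1r1b, which encodes the kinase A substrate DARPP-32, with 3283, 3505 and 3583 CPM in FC and 1076 and 2411 in HC. Hcn2, a channel modulated by cAMP, had 75.5, 56.8 and 74.9 CPM in FC and 46.4 and 50.1 in HC.

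**Figure D5:**
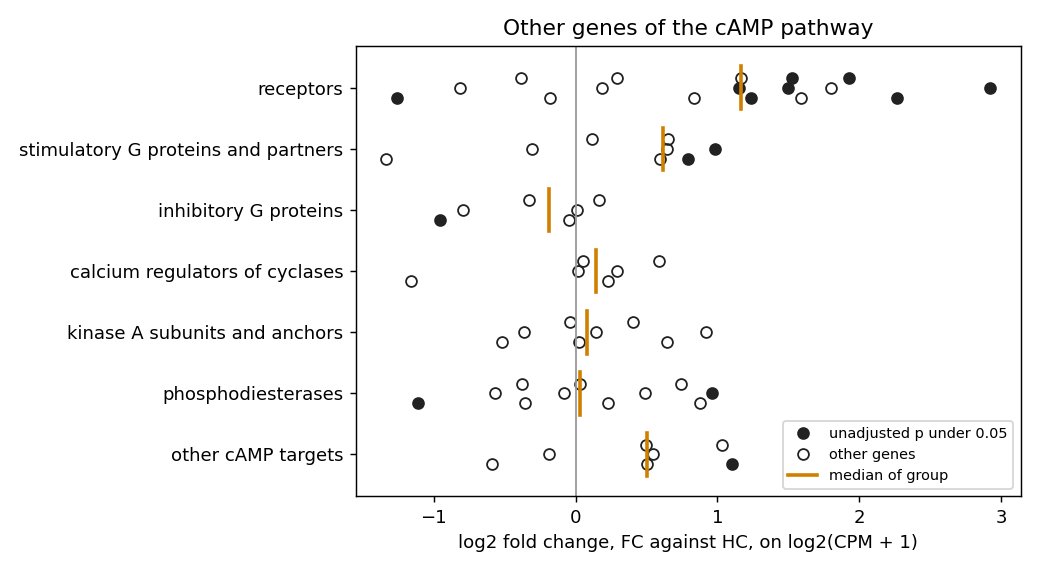
Log2 fold change of FC against HC on log2(CPM + 1) (horizontal axis) for 63 tested rows of the cAMP pathway by role, filled where the unadjusted p was under 0.05, with the median of each role as a bar. The receptors lie mostly to the right, with a median of 1.16, and the inhibitory G proteins around a median of -0.18.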

How the data were processed

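TRAP RNA of 5 pooled samples was prepared with SMARTer and Nextera XT kits. The authors deposited 1 table with a normalized signal per gene and library, made with software named Tuxedo DESeq, and a gene length. The submitters' processing notes name mm8 and DESeq, the aligner is not given in the sources used here, and neither is whether strand was used. All values (100%) were whole multiples, within 0.01, of the smallest value above 0 of their library, and these were used as reads. A floor of 3 reads corresponds to 0.1002 to 0.158 CPM. Groups came from the labels. Each library is its own pool of animals, so p-values measure the spread between pools.

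limma 3.58.1 (lmFit, eBayes with trend) was run on log2(CPM + 1), a scale that understates changes of low genes, for genes with a mean of at least 1 CPM. Cutoffs followed the study's methods. Single values were compared with exact permutation tests over the 10 splits of 5 libraries. Alternatives were a pseudocount of 0.1, no filter, quantile normalization, a stricter filter (1 CPM or more in each of the 5 libraries), edgeR 4.0.16 (quasi-likelihood, TMM) and DESeq2 1.42.0 on the recovered reads, values without division by length, and each library left out. Lengths below 0 (9 genes) were left out of levels per kb. All members were named. Of each pathway role the 2 genes with the smallest p were named, and for the 2 leading isoforms the 3 genes nearest in pattern. Single values of some marker genes are not reported here. Members and lists were chosen with earlier results of these data known. Statistics ran in R 4.3.3 and in Python 3.11.15 with scipy 1.17.1. Tables were handled with pandas 2.3.3 and numpy 2.4.6, and plots drawn with matplotlib 3.10.9.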

Additional observations from a re-analysis of the deposited data

How the results depend on the processing

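No paired analysis was possible because the groups share no replicate numbers. The counts of called isoforms and pathway genes, 0 in limma, stayed at 0 under the other pseudocount, filters, quantile normalization and edgeR, and were 1 and 6 with DESeq2. With each library left out in turn they ranged from 0 to 4 isoforms and from 0 to 25 pathway genes. The high counts came from leaving out an HC library, where the lone one left is assumed to vary like the FC libraries. Without HC replicate 6, 60.5% of all genes were called, with 4 isoforms (Adcy1, Adcy2, Adcy3 and Adcy8). Without HC replicate 7, 27.5% were called, with 3 isoforms (Adcy1, Adcy6 and Adcy8). Adcy1 was lower in FC in both, whereas Adcy8 had a log2 fold change of 1.61 without HC replicate 6 and -2.30 without HC replicate 7, 0.59 with a pseudocount of 0.1, -1.66 with DESeq2, -1.62 with edgeR and -1.16 with quantile normalization. The log2 fold change of Adcy3 was 2.73 and -0.53 without HC replicates 6 and 7, 0.42 with DESeq2 and 0.46 with edgeR. That of Adcy2 turned to -0.16 with edgeR, -0.20 with DESeq2, -0.04 without FC replicate 4 and -0.71 without HC replicate 6, and was 0.77 without HC replicate 7. The difference in the Adcy5 share, 13.3 percentage points, was 19.8 without division by length and 9.20 to 17.3 with each library left out. The Adcy3 share difference, -0.220 percentage points, turned to 0.080 without division by length and to 0.326 from summed values. It also turned to 0.0750 without FC replicate 2 and to 2.08 without HC replicate 6, and was -2.52 without HC replicate 7. That of Adcy2, -0.690, turned to 0.790 without HC replicate 7 and was -2.17 without HC replicate 6. That of Adcy8, -1.12, turned to 0.318 without HC replicate 6 and was -2.55 without HC replicate 7. The log2 ratio of the family sums was 0.20, and from -0.0778 (without HC replicate 6) to 0.55 with each library left out. The number of neighbours in the same order in every library was 2, and 2 to 4 with each library left out. The median log2 fold change of all genes was 0.08 in limma and -0.11 with DESeq2. Where a cause is not given, the cause was not tested.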
